A study of Mus musculus with 42 samples.

Results

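The 37 genes described here are nuclear genes for subunits of respiratory complexes II, III and IV, for cytochrome c and for ATP synthase (complex V). They were taken by name and not by a cut on their values, though earlier results of these data were known. They comprise 4 genes of complex II, 10 of complex III with cytochrome c, 10 of complex IV and 13 of ATP synthase. All 37 were found among the 54232 genes of the deposited count table, and all 37 passed the filter on low counts in every fit. The libraries, 42 in all, were made from mouse brain and sequenced as mRNA, with 20 under the label cerebellum and 22 under the label hippocampus. Mice had eaten for 12 weeks either control chow (11% fat) or western chow (42% fat), and a share of each had NaKtide. This peptide, derived from the sodium pump Na,K-ATPase, stops the pump from signalling through the kinase Src. The title of the series places the question in the pump of adipocytes and in cognitive decline.

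There were 8 groups, 4 under each label: control chow alone, control chow plus NaKtide, western chow alone, and western chow plus NaKtide. The cerebellum label had 5 libraries per group, and the hippocampus label had 6, 5, 5 and 6 in that order. NaKtide came from a transgene induced by 300 mg/kg doxycycline in the chow, so transgene, doxycycline and peptide go together. Whether the mice without NaKtide carried the transgene or ate doxycycline, which cells expressed the transgene, and the strain, sex and age of the mice were not stated in the labels. Nor do they state that each library is a different animal. The p-values therefore rest on the spread among these libraries, part of which may be technical.

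Library totals ran from 4669374 to 9521002 counts, and every member had at least 290 counts in every library (Sdhd the fewest). Cerebellar granule cell markers did not set most libraries labelled cerebellum apart from those labelled hippocampus. Gabra6, a receptor subunit of cerebellar granule cells, was at 0 in at least 1 library of every cerebellum group. It reached 225 CPM (the gene's count relative to the library's total, scaled by the TMM method) in another. The summed level of 5 cerebellar granule cell markers ran from 12.7 to 2531 CPM under the cerebellum label and from 9.36 to 274 CPM under the hippocampus label. Among cerebellum control, control NaKtide and western libraries, only control 1 (279 CPM), control NaKtide 5 (1215 CPM) and western 3 (2531 CPM) exceeded 274 CPM. The regions are therefore named here by label only. Pituitary hormone transcripts summed to over 100 CPM in cerebellum control 1 and 4 (309 and 127 CPM) and in hippocampus control NaKtide 3 and 4 (445 and 545 CPM). In 4 libraries Xist had at least 20 counts (cerebellum western NaKtide 5, hippocampus control 5 and 6, hippocampus western NaKtide 6). Hippocampus control 5 and 6 were alike in markers that varied widely among libraries (striatal sums of 1145 and 1134 CPM, choroid plexus sums of 323 and 319 CPM). Their counts were also the closest of all 90 pairs of libraries within a group, with a chi-square per degree of freedom of 2.32 (7.11 for the next pair), which is above sampling noise. They were kept as 2 samples, and values with both summed as 1 are given where they bear on a result. The calls and medians of the members without the pituitary or the Xist libraries stand beside each comparison that uses those libraries.

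The respiratory chain of the inner mitochondrial membrane passes electrons from food to oxygen and pumps protons, and ATP synthase uses the returning protons to make ATP. Complex II (succinate dehydrogenase) hands electrons from the citric acid cycle to ubiquinone, complex III passes them on to cytochrome c, and complex IV (cytochrome c oxidase) gives them to oxygen. Complexes III, IV and V are built from a few subunits encoded in mitochondrial DNA and many encoded in the nucleus, whereas complex II is wholly nuclear. Neurons depend heavily on this pathway to keep ion gradients. Many nuclear subunit genes are known targets of the transcription factors NRF1 and GABP (also called NRF2 in older work), which act with the coactivator PGC-1alpha.

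Promoter windows of RefSeq (GRCm38.p6, 250 bases before to 50 bases after the start) were found for 29 of the 37 members. A gene was counted once if any of its windows had a match. The NRF1 letters, GCGC, any 2 bases and GCGC again, were present on either strand in 10 of these 29 members (34.5%). They were present in 1614 of the 11502 tested genes with a window and in 1891 of all 27025 genes with a window. The GABP letters CCGGAAG were present in 12 of 29 (41.4%), against 18.0% of tested genes and 9.93% of all genes with a window. At least 1 of both was found in 18 members, and Sdhd, Cox6a1, Atp5h and Atp5k had both. The YY1 letters AAGATGGC were found in 1 member, Atp5j (3.45%, against 4.76% and 3.19%), and the ERRalpha letters TCAAGGTCA in 2, Sdhd and Atp5g3 (6.90%, against 0.40% and 0.466%). A match of letters is a description, not a bound site.

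Stretches before the start of 5 members are shown for 4 genes that rose and 1 that did not pass: Uqcr11, Cox6a1, Atp5e and Atp5h were higher with NaKtide on western diet in hippocampus libraries, and Atp5b did not pass that test. Capitals mark a GABP match in Uqcr11 and Atp5e (on the opposite strand in Atp5e) and NRF1 matches in Cox6a1 and Atp5h. The stretch of Atp5b held none of the 4 motifs. Other members went the other way. Sdha, Sdhd, Uqcrc1, Atp5c1 and Atp5j had NRF1 or GABP letters in a window and did not pass. Uqcr10, Cox5b, Cox7a2, Cox7c and Atp5d rose and had a window with none of the 4 motifs. A link between motif and change was not tested.
Uqcr11, GRCm38.p6 chr10:80406831-80406950, minus strand: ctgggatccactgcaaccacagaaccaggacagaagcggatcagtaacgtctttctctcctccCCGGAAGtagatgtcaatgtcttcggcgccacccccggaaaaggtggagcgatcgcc
Cox6a1, GRCm38.p6 chr5:115348982-115349129, minus strand: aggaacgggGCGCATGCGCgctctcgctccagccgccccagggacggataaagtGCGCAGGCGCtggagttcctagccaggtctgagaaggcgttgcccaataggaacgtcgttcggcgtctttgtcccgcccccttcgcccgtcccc
Atp5e, GRCm38.p6 chr2:174464106-174464225, minus strand: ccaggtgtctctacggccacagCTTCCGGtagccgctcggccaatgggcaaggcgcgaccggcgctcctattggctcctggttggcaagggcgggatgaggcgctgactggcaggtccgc
Atp5h, GRCm38.p6 chr11:115419963-115420082, minus strand: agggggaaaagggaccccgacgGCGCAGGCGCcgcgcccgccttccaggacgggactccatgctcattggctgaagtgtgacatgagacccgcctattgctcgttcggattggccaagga
Atp5b, GRCm38.p6 chr10:128083153-128083272, plus strand: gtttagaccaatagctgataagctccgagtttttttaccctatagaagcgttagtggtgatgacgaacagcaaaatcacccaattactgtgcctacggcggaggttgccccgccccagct

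Levels of the members are compared here only with one another. On the deposited FPKM scale (reads per length of gene and depth of library), the mean level over all 42 libraries was highest for the complex IV subunits Cox8a at 896 ± 225 (SD, n = 42) and Cox6a1 at 675 ± 175. It was lowest for Atp5l at 28.4 ± 8.13, Atp5g1 at 34.5 ± 8.50 and Sdhc at 38.9. The length by which the FPKM divide equalled the union of annotated exons for 36 of the 37 members (545 against 619 bases for Cox8a), and it is much longer than the main transcript for some (6443 against 544 bases for Atp5l). When the FPKM were rescaled from that length to the main transcript, Cox4i1 (922), Cox8a (888) and Cox6a1 (830) came first and Atp5l moved from place 37 to place 17. Atp5g1 (35.9), Sdhc (39.9) and Cycs (57.1), the gene of cytochrome c, then came last.

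Summed over the 37 members on a CPM scale shared by all 42 libraries, levels were highest in cerebellum control at 12771 ± 2106 CPM (SD, n = 5) and in hippocampus control NaKtide at 12029 ± 1553 CPM (n = 5). They were lowest in hippocampus western, at 7756 ± 1428 CPM (n = 5). The other 5 groups lay between 9431 and 10475 CPM, and their ranges overlapped one another. Complex IV varied most between groups, from 2264 ± 595 CPM in hippocampus western to 4451 ± 774 CPM in cerebellum control. Complex II varied least, from 656 ± 56.2 to 801 ± 120 CPM in the same pair of groups. In bulk tissue, fewer cells of a type and less RNA per cell cannot be told apart.

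**Figure D1:**
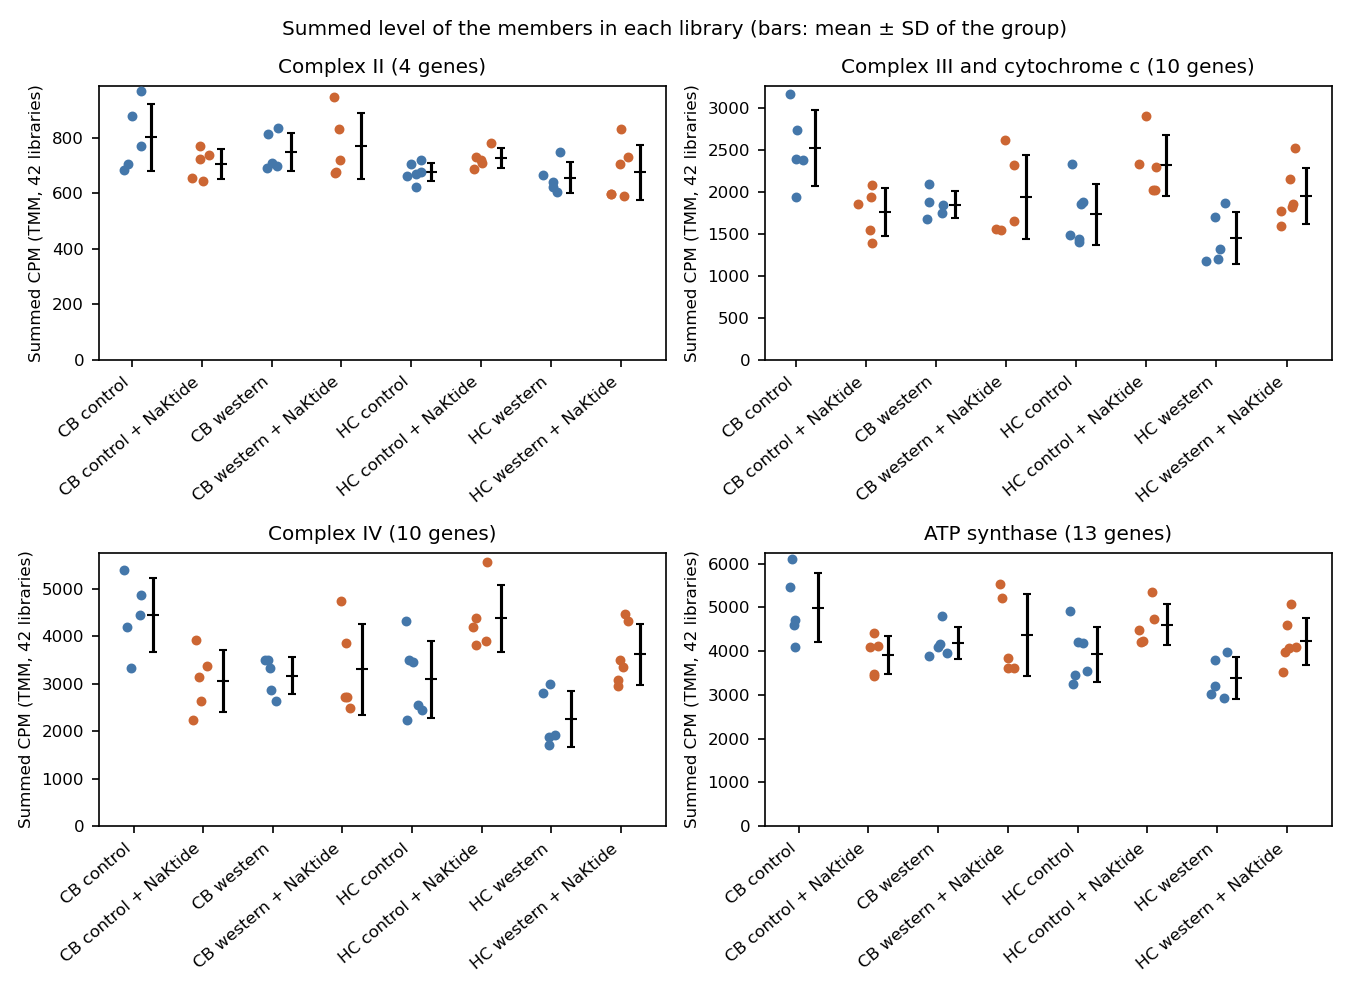
Summed CPM of the members of each complex (y axis, TMM scaling over 42 libraries) in each library (points) of the 8 groups (x axis; CB and HC are the labels cerebellum and hippocampus, orange marks NaKtide), with the group mean ± SD as black bars. For complex IV, the 5 hippocampus western libraries lie between 1715 and 2998 CPM and the 6 western NaKtide libraries between 2960 and 4476 CPM.

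The first comparison asks what NaKtide changed in mice on western diet. In libraries labelled hippocampus, 22 of the 37 members were higher with NaKtide (n = 6) than without (n = 5) and 1 was lower, by edgeR's quasi-likelihood test with Benjamini-Hochberg adjustment over 16442 genes. Of all genes tested, 33.7% were called, 17.4% higher and 16.3% lower. The median log2 change of the members was 0.58, against 0.05 over all genes, and 32 of the 37 had a positive sign. Complex IV had 8 of 10 members higher, ATP synthase 8 of 13, complex III with cytochrome c 4 of 10 higher and 1 lower, and complex II 2 of 4 higher. The summed level of all members was 8985, 6575, 6574, 7055 and 9589.9 CPM in western libraries 1 to 5, and 8808 CPM (lowest), 9891 CPM (median) and 12769.7 CPM (highest) with NaKtide. The 3 lowest western libraries (2, 3 and 4) lay below every NaKtide library, and western 1 and 5 overlapped with them.

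**Figure D2:**
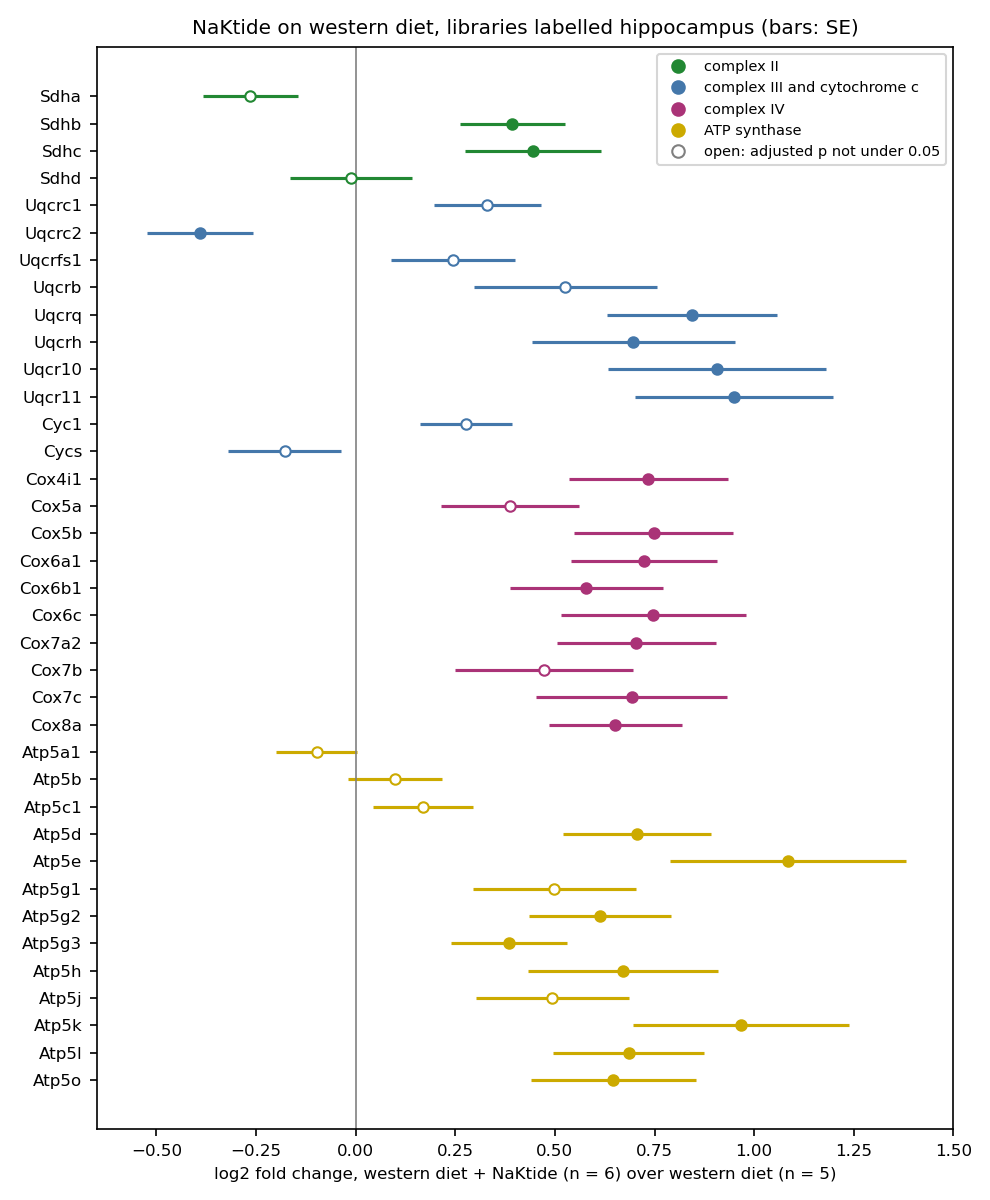
Log2 fold change (x axis) of each member (y axis, by complex) for western diet with NaKtide over western diet in libraries labelled hippocampus, with bars of ± 1 SE. Filled points passed the adjusted p of 0.05, and the 22 filled points on the right stand against 1 on the left, Uqcrc2.

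Complex II is made of a flavoprotein (Sdha), an iron-sulfur protein (Sdhb) and a pair of membrane anchors (Sdhc, Sdhd). Sdhb (ENSMUSG00000009863, chromosome 4, 140961203 to 140979193 in GRCm38) was at 133, 119, 114, 113 and 157 CPM in the western libraries, and at 136 (lowest), 164 (median) and 202 CPM (highest) with NaKtide. All 6 NaKtide libraries lay above the western mean, and the ranges overlapped through western 5. From 127 ± 18.4 to 167 ± 22.5 CPM, Sdhb rose by 0.39 on the log2 scale (SE 0.13, adjusted p = 0.0254). Sdhc stood at 107, 80.6, 77.8, 86.5 and 127 CPM without NaKtide and at 101, 128 and 171 CPM (lowest, median, highest) with it. Its log2 change was 0.45 (SE 0.17, adjusted p = 0.0484), again with overlap. Sdha, the catalytic subunit, did not pass, with a log2 change of -0.26 (adjusted p = 0.0893), nor did Sdhd at -0.01.

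In complex III the small subunits Uqcrq, Uqcrh, Uqcr10 and Uqcr11 rose, whereas the large core proteins did not. Uqcrq (ENSMUSG00000044894, chromosome 11, 53427922 to 53430831) was at 146, 91.9, 87.5, 94.0 and 151 CPM without NaKtide, and at 151, 212 and 252 CPM (lowest, median, highest) with it. The groups did not overlap, though the highest western and the lowest NaKtide library were less than 1 CPM apart. The log2 change of Uqcrq was 0.84 (SE 0.21, adjusted p = 0.00688). Uqcr11, the smallest of these subunits by coding length, was at 147, 75.4, 92.6, 94.6 and 138 CPM against 151, 218 and 285 CPM, with no overlap and a log2 change of 0.95 (SE 0.25, adjusted p = 0.00813). Uqcr10 rose by 0.91 and Uqcrh by 0.70 on the log2 scale. Uqcrc2 (ENSMUSG00000030884, chromosome 7, 120635176 to 120659524), a core protein, fell: it was at 166, 176, 155, 176 and 153 CPM without NaKtide and at 102, 110.0 and 177 CPM with it. Of the 6 NaKtide libraries, 5 lay below the western mean and 1, western NaKtide 2, lay above every western library. The log2 change of Uqcrc2 was -0.39 (SE 0.13, adjusted p = 0.0284). Uqcrc1, the other core protein, had 0.33 (adjusted p = 0.0596), Uqcrfs1, the Rieske iron-sulfur protein, 0.24, Cyc1, cytochrome c1, 0.28, Uqcrb 0.53 and Cycs -0.18, none of which passed.

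Complex IV had the largest share of members that rose. Cox6a1 (ENSMUSG00000041697, chromosome 5, 115345642 to 115348981), the form of subunit VIa made outside muscle, was at 383, 229, 274, 287 and 352 CPM without NaKtide and at 426, 477 and 657 CPM (lowest, median, highest) with it. The 2 groups did not overlap, and the log2 change was 0.72 (SE 0.18, adjusted p = 0.00694). Cox8a (ENSMUSG00000035885, chromosome 19, 7215153 to 7217616) was at 398, 272, 310.5, 304 and 401 CPM without NaKtide and at 403, 559 and 590.5 CPM with it. These also did not overlap, by a margin of under 2 CPM, with a log2 change of 0.65 (SE 0.17, adjusted p = 0.00724). The 6 further members that rose were Cox4i1 (0.73), Cox5b (0.75), Cox6b1 (0.58), Cox6c (0.75), Cox7a2 (0.70) and Cox7c (0.69). Cox5a at 0.39 (adjusted p = 0.0878) and Cox7b at 0.47 (adjusted p = 0.105) did not pass.

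ATP synthase has a catalytic F1 head (Atp5a1, Atp5b, Atp5c1, Atp5d, Atp5e, for the subunits alpha to epsilon), a membrane ring of subunit c (Atp5g1, Atp5g2 and Atp5g3) and a stalk and membrane part (Atp5h, Atp5j, Atp5k, Atp5l, Atp5o). Within the head, the 2 small subunits rose and the 3 larger ones did not pass. Atp5d (ENSMUSG00000003072, chromosome 10, 80138632 to 80145818) was at 251, 182, 171, 177 and 272 CPM without NaKtide and at 274, 366 and 391 CPM with it, with no overlap and a log2 change of 0.71 (SE 0.19, adjusted p = 0.00834). Atp5e (ENSMUSG00000016252, chromosome 2, 174461072 to 174464105) was at 110.3, 54.1, 68.8, 68.7 and 107 CPM against 105, 162 and 281 CPM, overlapping in 1 NaKtide library and 2 western ones. It had the largest log2 change of the members, 1.08 (SE 0.30, adjusted p = 0.00993). Atp5b, the catalytic beta subunit, was at 998, 983, 868, 998 and 1049 CPM without NaKtide and at 865, 1014 and 1284 CPM with it, a range that enclosed the western one. The log2 changes were 0.10 for Atp5b, -0.10 for Atp5a1 and 0.17 for Atp5c1, none passing.

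The 3 genes of subunit c encode the same mature protein behind different import sequences. Atp5g1 was at 161, 86.6, 85.8, 116 and 154 CPM without NaKtide and at 136, 175 and 194 CPM (lowest, median, highest) with it, a log2 change of 0.50 (adjusted p = 0.0622) that did not pass. Atp5g2 was at 84.1, 55.6, 67.6, 66.3 and 89.9 CPM against 95.3, 107 and 143 CPM, with no overlap and a log2 change of 0.61 (SE 0.18, adjusted p = 0.0132). Atp5g3 was at 234, 164, 154, 175 and 273 CPM against 204, 254 and 316 CPM, and its log2 change was 0.39 (SE 0.15, adjusted p = 0.0459) with overlapping groups. Of the summed FPKM of the 3 genes, Atp5g3 made up 57.3% ± 2.18 (SD, n = 5) without NaKtide and 54.1% ± 2.42 (n = 6) with it, and Atp5g2 27.4% ± 2.33 and 30.1% ± 1.76. Over the 8 groups, mean shares ran from 15.3% to 16.7% for Atp5g1, 26.7% to 31.9% for Atp5g2 and 51.5% to 57.5% for Atp5g3. In the stalk and membrane part, Atp5k (0.97), Atp5l (0.68), Atp5h (0.67) and Atp5o (0.65) rose, and Atp5j (0.49, adjusted p = 0.0501) did not pass. In all, 6 members had no overlap between the groups with NaKtide higher, as had 5.8% of all genes tested. No member lay lower without overlap, as 7.36% of genes did.

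**Figure D3:**
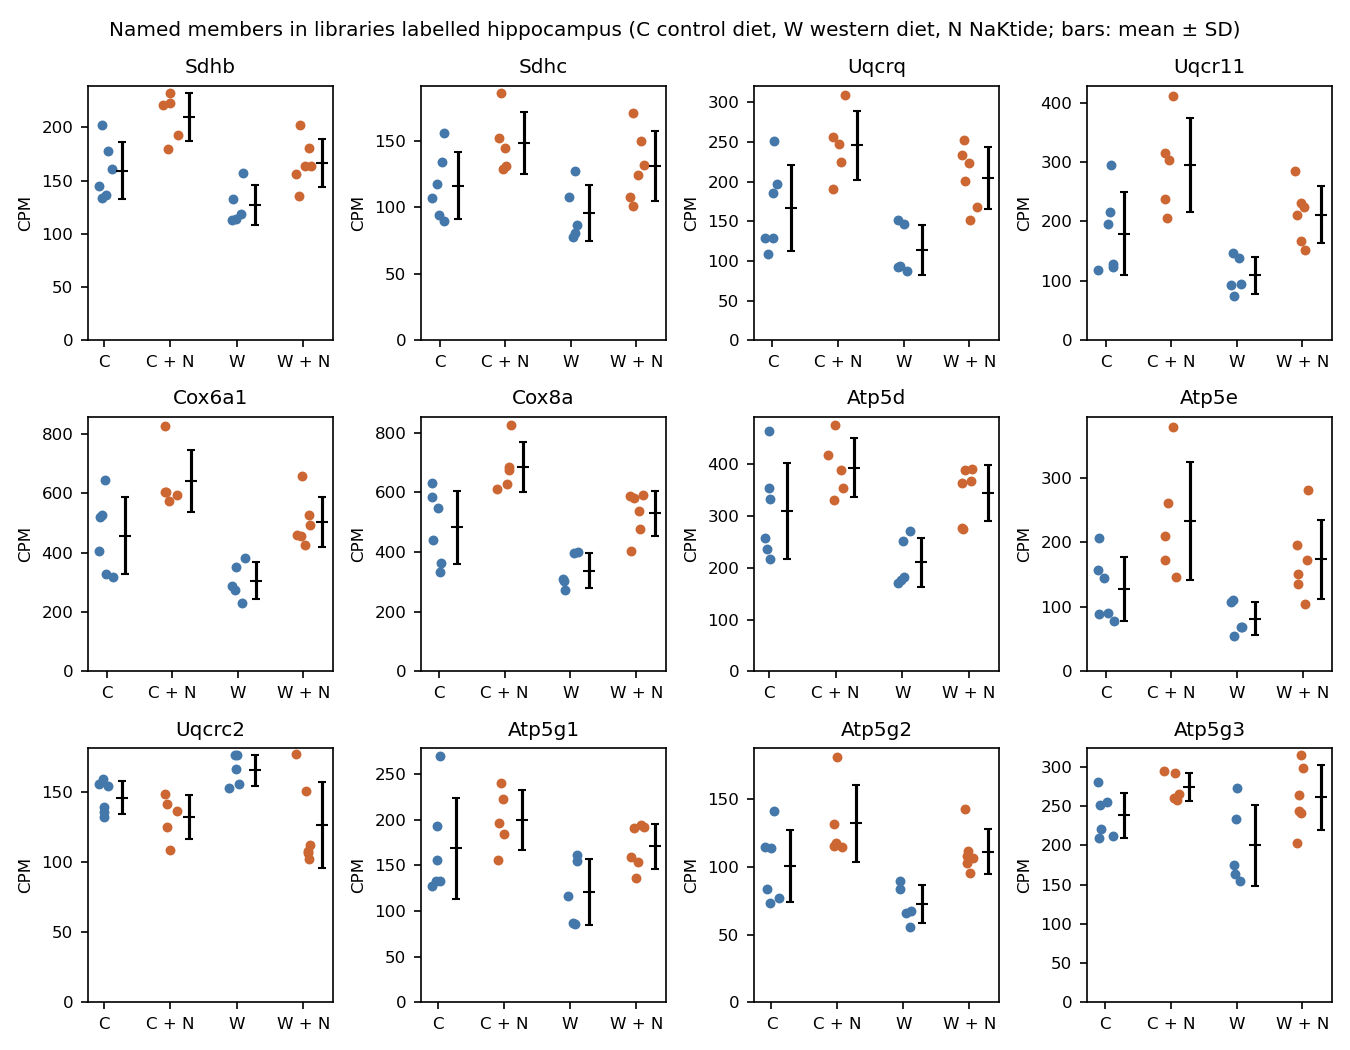
CPM (y axis, from 0) of 12 members in each library labelled hippocampus (points) of the control (C) and western (W) diet groups without and with NaKtide (N), with mean ± SD as black bars. Uqcrq, Uqcr11, Cox6a1, Cox8a, Atp5d and Atp5g2 show no overlap between W and W + N, and Uqcrc2 is lower in 5 of the 6 W + N libraries.

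Markers of other cells moved with this comparison. Of the 5 red blood cell markers, 4 were higher with NaKtide (summed level 248 to 1307 CPM without and 656 to 3541 CPM with it), and 3 of 6 striatal markers were higher (110.0 to 359 against 142 to 3520 CPM). Of markers of other neurons and glia, 4 of 5 dentate granule cell markers (96.7 to 486 against 40.4 to 155 CPM) and 3 of 4 astrocyte markers (1556 to 1908 against 1340 to 2161 CPM) were lower. So were 3 of 4 Purkinje cell markers (131 to 438 against 54.6 to 246 CPM), 2 of 3 cerebellar granule cell markers tested (the 5 summed, 28.2 to 274 against 17.5 to 69.1 CPM) and 1 of 5 pyramidal cell markers (238 to 544 against 36.9 to 372 CPM). Higher were 2 of 5 microglial markers (139 to 252 against 171 to 280.4 CPM), 1 of 4 of the hypothalamus (0.13 to 29.7 against 0.959 to 144 CPM) and 1 of 4 of oligodendrocytes (2904 to 7461 against 1636 to 13277 CPM). None of the thalamus, choroid plexus, pituitary, endothelium or muscle was called. The share of counts in 13 mitochondrial protein genes was 4.85% to 7.29% without NaKtide and 5.60% to 15.6% with it. The part of these markers and of that share in the result was not tested. Without the Xist libraries 22 members were called (median 0.60), and likewise without the pituitary libraries (0.54). Between 12 and 29 members were called when 1 library of the 2 groups was left out, with 12 without western 2, 14 without western 3 and 13 without western 4. With the leading component of the cerebellum libraries as a covariate 7 members were called, all higher. The shares of all genes called under these alternatives are not given here, so the counts do not set the members apart from other genes.

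The change was graded by gene length, among the members and over all genes. Of the 22 members with a coding length up to 450 bases, 16 rose (median log2 change 0.69). Of the 9 above that and up to 900 bases 6 rose (median 0.45). Of the 6 longer ones (Sdha, Uqcrc1, Uqcrc2, Cyc1, Atp5a1 and Atp5b) none rose and 1 fell. Over all coding genes tested, 40.6% of the 899 in the shortest class were called higher and 5.12% lower (median 0.50), against 10.3% higher and 21.6% lower of the 10170 in the longest (median -0.09). Across the 37 members the log2 change and the log2 coding length had a Pearson correlation of -0.76 (Spearman -0.72), as a description over genes that share the same libraries. Cycs and Sdhd lay apart from this gradient, with short coding sequences of 315 and 477 bases and log2 changes of -0.18 and -0.01. With the trend with exon length taken out of each library, 15 members were called (13 higher, 2 lower, median 0.35). With trends with main transcript length and GC content taken out, 5 were called (4 higher, 1 lower) and the median was 0.05, against 0.03 over all genes. The shares of all genes called with these trends taken out are not given here. The fall in called members is therefore not shown to be particular to them.

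**Figure D4:**
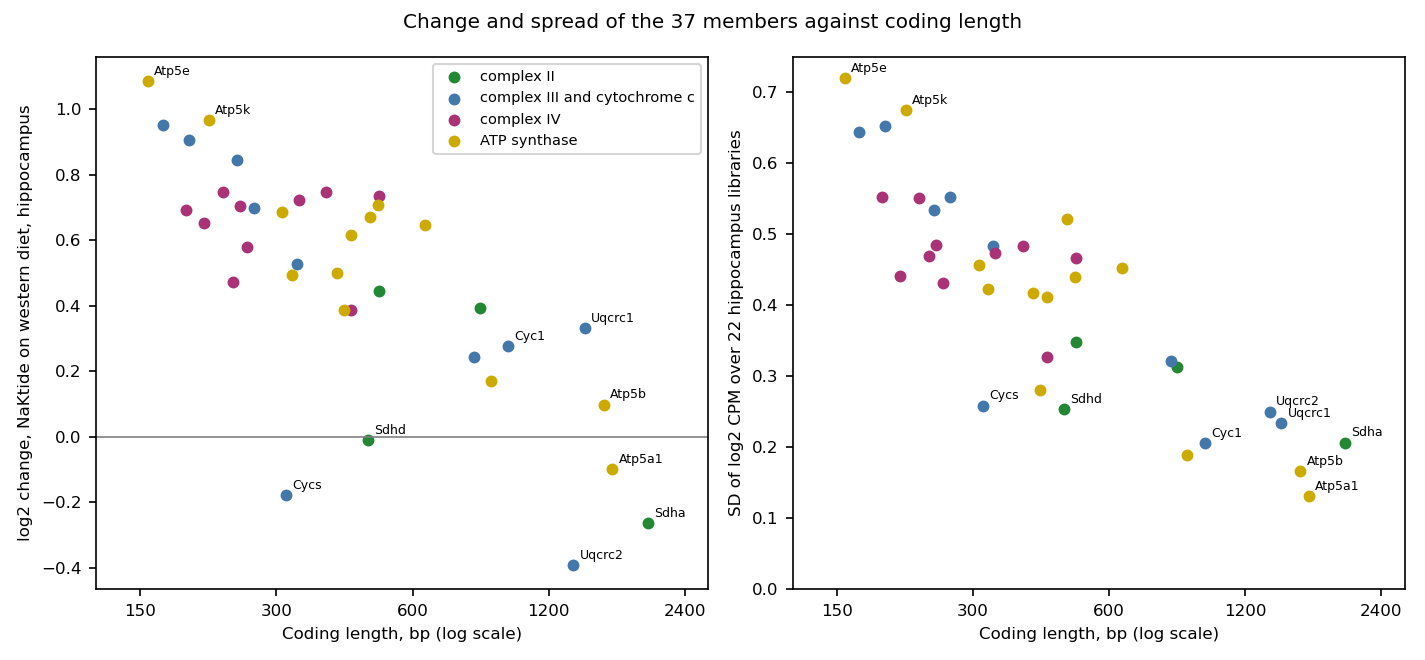
Left, log2 change with NaKtide on western diet under the hippocampus label, and right, the SD of log2 CPM over the 22 hippocampus libraries (y axes), against the coding length of each of the 37 members (x axes, log scale), coloured by complex. Atp5e, the shortest at 156 bases, lies highest in both panels, and the 6 members over 900 bases lie between 0.13 and 0.25 on the right.

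The other comparisons within the hippocampus label gave no called member and no called gene in edgeR, and DESeq2 called no member either. For western against control diet without NaKtide, the median of the members was -0.38 (all genes -0.03), and 15 members and 4046 genes had an unadjusted p under 0.05. The smallest p belonged to Cox6a1, at 305 ± 61.8 CPM on western diet (SD, n = 5) against 457 ± 129 CPM on control diet (n = 6), a log2 change of -0.58 (SE 0.18, adjusted p = 0.0997), and to Cox8a at -0.52 (adjusted p = 0.102). Both were below the control mean in 5 of 5 western libraries and overlapped with controls, and no member was free of overlap in either direction (1.73% of genes lay higher and 1.3% lower without overlap). Without the Xist libraries, among them control 5 and 6, 8 members and 917 genes were called lower (median -0.50), and without control 6 alone 2 members and 208 genes were. With control 5 and 6 summed as 1 sample no member and 39 genes were called (median -0.44), and without the pituitary libraries no member and 53 genes (-0.35). With the leading component as a covariate 8 members and 725 genes were called lower.

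For NaKtide on control diet the median of the members was 0.45 (all genes 0.01), and 23 members among 2720 genes had an unadjusted p under 0.05. Cox6c, at 381 ± 90.0 against 233 ± 62.2 CPM, had a log2 change of 0.71 (SE 0.23, adjusted p = 0.21), and Uqcr10 one of 0.82 (SE 0.27, adjusted p = 0.21). Only Cycs had no overlap (0.712% of genes had none in that direction and 0.62% in the other), with a log2 change of 0.29 (adjusted p = 0.314). The pituitary libraries belong to the NaKtide group here: without them the median was 0.30, without the Xist libraries 0.29 and with control 5 and 6 summed 0.39, and no member was called in any of these. For western against control diet with NaKtide the median was -0.26. There 4 members had an unadjusted p under 0.05, and how many of all genes had one is not given here. Cycs was at 150.3 ± 27.6 against 197 ± 15.3 CPM (log2 change -0.39, adjusted p = 0.392) and Sdhb at 167 ± 22.5 against 209.8 ± 22.5 CPM (-0.33, adjusted p = 0.421). In this last comparison Cox8a alone had no overlap, lower on western diet, as had 0.432% of genes (0.304% in the other direction). Its median was -0.11 without the pituitary and -0.21 without the Xist libraries, again with no member called. The interaction of diet and NaKtide had a member median of 0.12 and 1 member under an unadjusted p of 0.05, Cycs at -0.47 (SE 0.20, adjusted p = 0.293), followed by Atp5d at 0.36 (adjusted p = 0.549). Its median ran from 0.01 (without control 4) to 0.25 (without western 5) with 1 library left out, and was 0.29 without the Xist and 0.24 without the pituitary libraries. These comparisons share groups with the first one, so their values stand side by side and do not back one another.

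Under the cerebellum label no member was called in any of the 5 comparisons by edgeR. Of all 16338 genes, 1 gene (0.00612%) was called lower for NaKtide on control diet, 1 lower for western diet without NaKtide and 1 higher for the interaction, and none in the other 2 comparisons. For NaKtide on control diet, the members lay lower with NaKtide, with a median log2 change of -0.53 (all genes 0.02) and 28 members among 4816 genes under an unadjusted p of 0.05. Uqcrb, a small subunit of complex III, was at 162.5, 178, 147, 157 and 119.5 CPM in cerebellum control and at 102, 112, 109.5, 87.3 and 66.3 CPM with NaKtide. Its groups did not overlap, and its log2 change was -0.68 (SE 0.17, adjusted p = 0.0908). Cox7b went from 331 ± 64.2 to 201 ± 47.6 CPM (-0.72, SE 0.21, adjusted p = 0.0908) with overlap through control 5. In all, 3 members (Uqcrb, Atp5g2 and Atp5g3) lay lower without overlap, as did 1.92% of genes, and none lay higher so (1.76%). DESeq2 called 11 members lower, among 808 genes called lower and 390 higher. Cerebellum control 5 lay below the other 4 controls for the summed level, at 10078 CPM against 12072 to 15627 CPM. Without it, 24 members were called lower, of 4386 genes called in all (2099 lower, 12.7% of those tested). Controls 1 to 4 also held 27.2 to 309 CPM of pituitary transcripts, against 6.50 CPM in control 5 and 1.45 to 30.0 CPM in the NaKtide libraries. Without the 2 of these libraries over 100 CPM, the median change of the members was -0.52 and none was called.

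For western against control diet without NaKtide under the cerebellum label, the median of the members was -0.40 and 24 members had an unadjusted p under 0.05. Uqcrb at 104 ± 11.3 against 153 ± 21.6 CPM (log2 change -0.55, SE 0.17, adjusted p = 0.164) and Uqcrq at 173 ± 23.0 against 278 ± 56.2 CPM (-0.68, SE 0.21, adjusted p = 0.164) did not overlap, as 1.42% of genes did not in that direction and 1.52% in the other. Without cerebellum control 5, 7 members were called lower, as were 388 genes (2.35%), and without the pituitary libraries none was (median -0.41). NaKtide on western diet gave a median of 0.06, which ran from -0.08 (without western NaKtide 3) to 0.15 with 1 library left out and so had no stable sign, with Cycs at 207 ± 15.8 against 173 ± 18.7 CPM (0.26, adjusted p = 1) and Atp5c1 at 289 ± 52.8 against 251 ± 19.9 CPM (0.21, adjusted p = 1) having the smallest p. Western against control diet with NaKtide gave a median of 0.14 (0.01 without western NaKtide 3, up to 0.24 with another library left out), with Atp5c1 at 0.29 and Cycs at 0.21 (adjusted p = 0.999 for both). In each of these 2 comparisons 1 member had an unadjusted p under 0.05, DESeq2 called none, and no member was free of overlap. Of all genes, 0.0857% lay higher and 0.3% lower without overlap for NaKtide on western diet, and 0.159% and 0.257% for western diet with NaKtide. The interaction had a median of 0.59 and 23 such members, led by Cycs at 0.52 and Uqcrb at 0.74 (adjusted p = 0.251 for both), and DESeq2 called none. Its median was 0.68 without the Xist and 0.60 without the pituitary libraries, with no member called. How many of all genes had an unadjusted p under 0.05 in the comparisons of this paragraph is not given here. The counts of members with such a p therefore do not set them apart from other genes.

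Whether NaKtide acted alike under the 2 labels was tested in a fit over all 42 libraries. On control diet the change with NaKtide was higher under the hippocampus than under the cerebellum label for 27 members and lower for none, where 20.6% of 17088 genes were called, 11.7% higher and 8.88% lower. The median difference was 0.95, against -0.02 over all genes. It covered 9 of 10 members of complex IV, 9 of 13 of ATP synthase, 7 of 10 of complex III with cytochrome c and 2 of 4 of complex II. Atp5l, a membrane subunit, was at 259, 309.8, 232, 251 and 198 CPM in cerebellum control and at 162, 185, 201, 128 and 119.6 CPM with NaKtide, overlapping in 1 pair of libraries. Under the hippocampus label it was at 133, 155 and 229 CPM (lowest, median, highest) in control and at 232, 215, 229.7, 318 and 199 CPM with NaKtide. The difference of its log2 changes was 1.16 (SE 0.27, adjusted p = 0.00757), and that of Atp5k, another membrane subunit, 1.69 (SE 0.39, adjusted p = 0.00757). The largest was that of Atp5e, at 1.80 (SE 0.42).

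**Figure D5:**
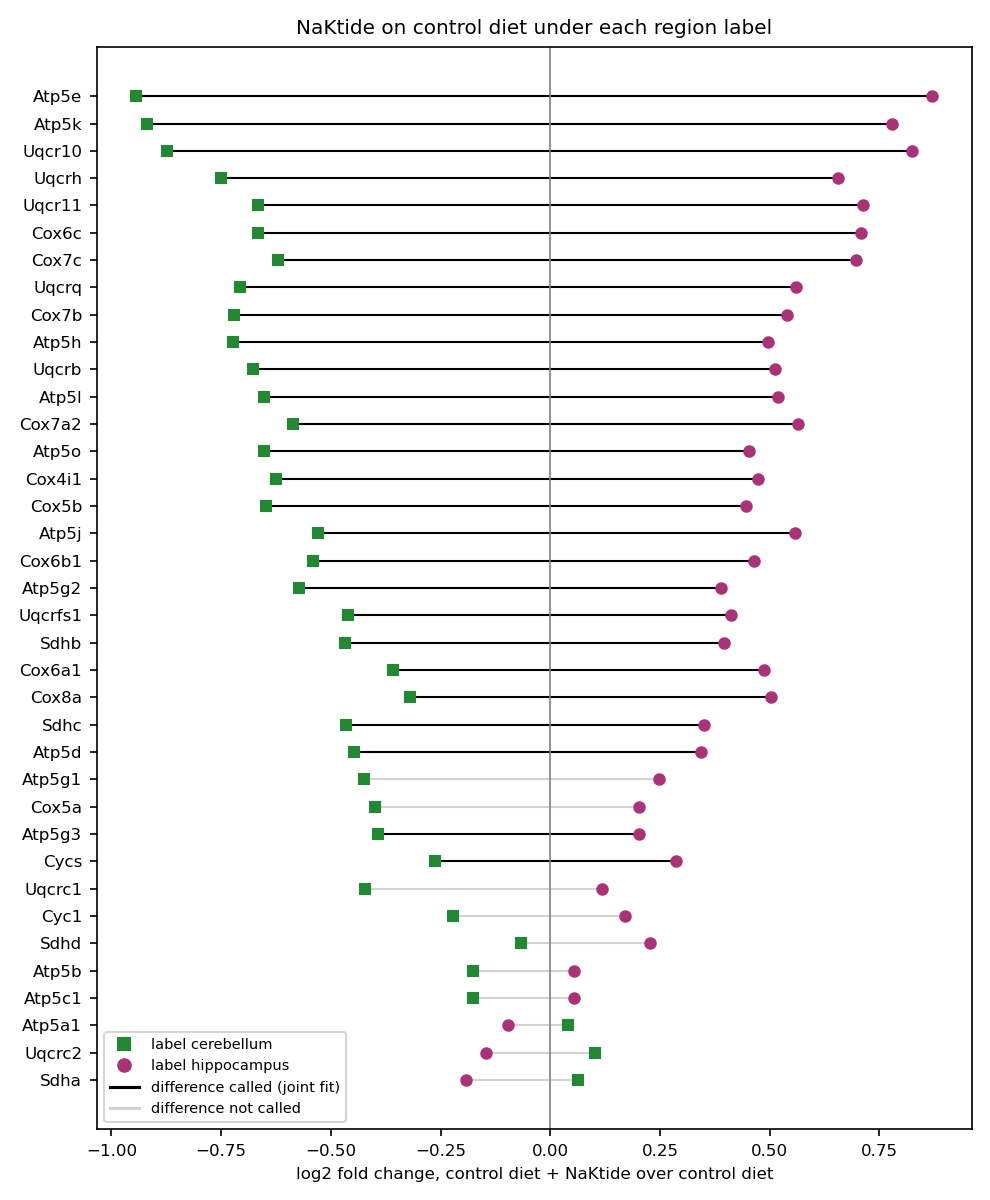
Log2 fold change (x axis) of each member (y axis, ordered by the difference) for control diet with NaKtide over control diet under the cerebellum label (squares) and the hippocampus label (circles). Black lines join the 27 members whose difference passed the adjusted p of 0.05 in the joint fit, and all 27 have the square to the left and the circle to the right of 0.

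The 10 members whose difference did not pass were Sdha, Sdhd, Uqcrc1, Uqcrc2, Cyc1, Cox5a, Atp5a1, Atp5b, Atp5c1 and Atp5g1, with values from -0.27 to 0.66. By coding length, 20 of the 22 shortest members, 7 of the 9 intermediate ones and none of the 6 longest passed, against 43.3% of all genes of the shortest class called higher. All 3 pituitary markers tested and 4 of 5 red blood cell markers moved the same way as the members. So did Mbp of oligodendrocytes (1.81, adjusted p = 0.0426) and Aif1 of microglia (1.05, adjusted p = 0.0333). Gja1 of astrocytes moved the other way (-0.98, adjusted p = 0.0459), and no other cell marker was called. Pituitary transcripts summed to 6.50 to 309 CPM in cerebellum control and 1.45 to 30.0 CPM in cerebellum control NaKtide, and to 2.78 to 4.73 CPM in hippocampus control and 3.62 to 545 CPM in hippocampus control NaKtide. Without the 4 libraries over 100 CPM, no member and no gene was called. The median difference of the members was then 0.81, that of Atp5l 0.96 (adjusted p = 0.192) and that of Atp5k 1.30. Without the Xist libraries 5 members and 503 genes were called, and with control 5 and 6 summed 25 members were. With the length and GC trends taken out 15 members were called, and the differences of Atp5l and Atp5k were then 0.39 (adjusted p = 0.0425) and 0.60 (adjusted p = 0.0166). The shares of all genes called with these controls summed or these trends taken out are not given here.

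On western diet the same difference between the labels had a member median of 0.49, and no member was called by edgeR although 8.84% of genes were (4.39% higher, 4.44% lower). There 16 members had an unadjusted p under 0.05, Uqcr11 at 0.97 (SE 0.34, adjusted p = 0.0647) and Cox8a at 0.69 (SE 0.25, adjusted p = 0.0659) the smallest. How many of all genes had such a p, or were called in the alternatives that follow, is not given here. DESeq2 called 1 member, lower, as did edgeR without the Xist libraries (median 0.41), and without the pituitary libraries none was called (0.43). By edgeR 14 were called without cerebellum western NaKtide 3, where the summed level of 13720.1 CPM was the highest of its group. So the change in hippocampus libraries on western diet, described first, was not shown to differ from that in cerebellum libraries. For western against control diet without NaKtide the median difference was 0.09 (from -0.00014 to 0.22 with 1 library left out, 0.01 without the Xist and 0.08 without the pituitary libraries), with 1 member under an unadjusted p of 0.05 (Cycs at 0.40, adjusted p = 0.913), followed by Cox7b at 0.32 (adjusted p = 0.955), and no member was called by edgeR or DESeq2.

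Between the labels themselves in control mice, members lay lower under the hippocampus label, with a median log2 difference of -0.52 (all genes 0.01). Sdhb, at 159 ± 24.8 against 228 ± 43.4 CPM in the joint fit, passed with -0.52 (SE 0.15, adjusted p = 0.0497) and lay below the cerebellum mean in 6 of 6 hippocampus libraries. Of all genes, 2.2% were called, 1.24% lower and 0.96% higher, and the member next to Sdhb was Uqcrq at -0.73 (SE 0.21, adjusted p = 0.0512). Cycs and Atp5g3 had no overlap, lower under the hippocampus label, as had 1.15% of genes (1.25% higher). This comparison turned on single libraries: 0 members were called without any one of 9 of the 11 libraries, 25 without cerebellum control 5, where 12.2% of genes were called lower, and 26 without hippocampus control 4, where 8.95% were. Without the pituitary or the Xist libraries, or with hippocampus control 5 and 6 summed, none was called, and DESeq2 called 21 lower among 1012 genes called lower.

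Most members varied together over libraries. Over the 22 hippocampus libraries the median member had an SD of 0.41 on the log2 scale, and Cox6b1, a subunit at the outer face of complex IV, followed it most closely, with an SD of the difference of 0.06. Cox7a2, Atp5o, Cox4i1 and Atp5l came next, at 0.09 to 0.10. Over the 20 cerebellum libraries Cox6b1 was again closest, at 0.07, followed by Cox4i1, Cox7a2, Atp5j and Uqcrb. Uqcrc2, Sdha and Atp5a1 did not follow the median member: their correlations with it were -0.40, -0.50 and -0.32 in hippocampus libraries and -0.37, -0.15 and -0.00015 in cerebellum libraries. Of the 37 members, 30 and 28 correlated with it above 0.8, as a description over libraries of 4 groups in which each member counts in the median. The SD of single members over libraries correlated between the labels at 0.94 (Pearson, 37 members), and with log2 coding length at -0.85 in hippocampus libraries. Across the members, the changes with NaKtide on western diet under the hippocampus label and with NaKtide on control diet under the cerebellum label, which share no library, correlated at -0.90 (Spearman -0.80). The members that were higher in the one therefore lay lower in the other, and both correlations are descriptions over genes that share their lengths.

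Further genes of the same complexes were read from lists chosen by function. With NaKtide on western diet under the hippocampus label, 8 of 12 other subunits and tissue isoforms tested rose and none fell (median 0.79). Among them were Atpif1, the inhibitor of ATP synthase (0.66, SE 0.17, adjusted p = 0.00816), and Atp5j2, a membrane subunit of ATP synthase (0.84, SE 0.22, adjusted p = 0.00822). Of 6 mitochondrially encoded subunits 3 rose (median 0.63), mt-Co1 by 0.95 and mt-Co2 by 1.00, both core subunits of complex IV. Of 30 assembly factors, 9 rose and 2 fell (median 0.19), with Uqcc3 at 0.84 and Uqcc2 at 0.98, both needed to build complex III. Of 13 regulators none rose and 4 fell (median -0.21), among them Ppargc1a, the gene of PGC-1alpha, from 31.4 ± 6.39 to 15.1 ± 4.85 CPM (-1.06, SE 0.25, adjusted p = 0.00504), and Yy1 at -0.52 (adjusted p = 0.00435). In that comparison 17.4% of all genes were called higher and 16.3% lower. For the difference between labels on control diet, where 11.7% of all genes were called higher and 8.88% lower, 7 of 12 other subunits, 5 of 6 mitochondrially encoded subunits and 10 of 30 assembly factors were higher, and 1 of 13 regulators, Yy1, was lower, a share near that of all genes.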

How the data were processed

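Per the labels' protocols, the 42 mouse brain libraries were built with a kit for stranded mRNA. Trimmomatic 0.38, HISAT2 2.1.0, DESeq2 1.20.0 and build GRCm38 are named in the submitters' processing notes. For the read counter, its treatment of reads that map to more than 1 place, and the annotation, nothing was stated in the sources used here. Processed pseudogenes are common for short subunits of the respiratory chain, so their counts carry that uncertainty. The authors deposited raw counts per gene, normalized counts (a signal equal to the count over 1 size factor per library) and FPKM computed from the latter. The series' design text describes liver and adipose tissue and other sample numbers, so tissue and group rest on the labels of the libraries.

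Raw counts were tested with edgeR 4.0.16 in R 4.3.3 (TMM, filterByExpr, quasi-likelihood F test), in 1 fit per region label (16442 genes in hippocampus, 16338 in cerebellum) and 1 over both (17088 genes), with groups from the labels. A gene was called at an adjusted p under 0.05 (Benjamini-Hochberg, over all genes of the fit). SE is the log2 change over the square root of F. Levels are CPM with the TMM factors of the fit of that label, and sums over members use the factors of the joint fit. FPKM were used only for levels between genes. Exon, coding and transcript lengths came from GENCODE for GRCm38 and promoters from RefSeq.

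Members and lists were chosen with earlier results of these data known. Named were the 2 members with the smallest p of each complex in the first comparison, the member called against the others, the 3 genes of subunit c, the 2 smallest p of every other comparison, and the 2 smallest p of further lists. Members given by their change alone are listed to account for all 37, and Atp5e was added to the difference between labels, and the members without overlap to each comparison, after their values were seen. The median correlation of same-numbered libraries was -0.11 in hippocampus and -0.06 in cerebellum. It was -0.05 for the 20 pairs of 1 number and group across the labels, which ran from -0.39 to 0.55, with 7 over 0.1. These values do not exclude that libraries share an animal or batch, and the joint fit treats all libraries as independent.

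Alternatives were no low-count filter, DESeq2 size factors, DESeq2 1.42.0, the compared groups only, a replicate block, an exon length trend taken out, and each library left out. Those chosen after seeing the data were trends with main transcript length and GC content, leaving out 4 Xist or 4 pituitary libraries, summing hippocampus control 5 and 6, and the leading component of the other label's libraries as a covariate. On simulated counts the fit for NaKtide on western diet under the hippocampus label recovered 24% of 1.5-fold and 85% of 2-fold changes among 16224 genes, with 4.39% false calls. For the difference between labels on control diet it recovered 3% and 25% among 16904 genes, with 3.45% false calls. Only 100 genes were changed at each fold in these simulations, whereas the real fits called 33.7% and 20.6% of genes. Each gene was also drawn independently of the others, whereas most members varied together over the real libraries. The rates therefore need not hold for the real fits.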

Additional observations from a re-analysis of the deposited data

Results flagged for a closer look

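Values far from the rest of a group were looked for in summed levels (all groups) and in named members (hippocampus groups only). Of 88 such checks 3 stood out, and chance gives about 1 in 20. Cox6a1 was at 826 CPM in hippocampus control NaKtide 4, where the other 4 libraries of the group lay between 574 and 604 CPM. Atp5g2 was at 182 CPM in the same library, against 115 to 132 CPM in the others. That library had the highest pituitary sum of all, 545 CPM, and the lowest total, 4669374 counts, and their part in these values was not tested. Atp5g2 was also at 143 CPM in hippocampus western NaKtide 2, against 95.3 to 112 CPM in the other 5.

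The effect of NaKtide on control diet differed between the region labels in the joint edgeR fit for 27 members, where 20.6% of all genes were called. The difference of the log2 changes was 1.69 for Atp5k and 1.16 for Atp5l (adjusted p = 0.00757 for both). Atp5l lay above the control mean in the hippocampus libraries and below it in the cerebellum libraries. None of the 27, and no other gene, was called without the 4 libraries over 100 CPM of pituitary transcripts. These belong to cerebellum control and hippocampus control NaKtide, so that fit also had fewer libraries in these groups. The part of pituitary transcripts in the difference was not tested.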

How the results depend on the processing

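Counts of members in this section stand without the share of all genes called in the same setting. That share also moved between settings, so the counts alone do not set the members apart from other genes. For NaKtide on western diet under the hippocampus label, 23 members were called. This became 15 with the exon length trend taken out, 5 with transcript length and GC trends and 7 with the leading component, 16 to 26 under the other alternatives, and 12 to 29 with 1 library left out. Single changes under the alternatives were read only for the called members named in that comparison. With length and GC trends taken out, 5 of those log2 changes turned negative: Sdhb -0.047, Cox6a1 -0.082, Cox8a -0.18, Atp5g2 -0.052 and Atp5g3 -0.065. Of the named members, Uqcrq passed in 22 of 22 alternatives, whereas Sdhc did not pass in 17 and Atp5g3 in 13 with its sign kept. The cause of these shifts was not tested.

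For western diet without NaKtide under the hippocampus label, 8 members were called without the Xist libraries, 8 with the leading component and 0 to 2 with 1 library left out. With NaKtide, 1 was called with the leading component. Under the cerebellum label, NaKtide on control diet gave 11 by DESeq2 and 0 to 24 with 1 library left out, and western diet without NaKtide 0 to 7.

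Between labels in control mice, 1 member was called: 3 with DESeq2 size factors, 13 with the length trend, 9 with length and GC trends, 21 by DESeq2, and 0 with no filter, the replicate block, the compared groups only, without Xist or pituitary libraries or with control 5 and 6 summed, and 0 to 26 with 1 library left out. For the difference between labels of NaKtide on western diet, 6 were called with the replicate block, 2 with the length trend, 1 by DESeq2, 1 without the Xist libraries and 0 to 14 with 1 library left out. On control diet, of 27 called, 15 remained with length and GC trends, 5 without the Xist libraries and 0 without the pituitary libraries, against 22 to 30 with 1 library left out. The replicate block changed the call of Sdhc (log2 change 0.46) and Atp5g3 (0.41) on western diet and of Sdhb between labels (-0.49), and gave 19 members called in the first comparison. Same-numbered libraries did not deviate together in the median, but this cannot exclude a shared animal or batch, since tissue content also varied among libraries.

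Tissue content differs between libraries of one group, and the design does not separate it from the groups. In simulations with 100 genes changed at each fold, a 1.5-fold change was mostly missed. The first comparison and the difference between labels on control diet had far more genes called, so that rate need not hold there. A member that did not pass may still have changed.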

Other observations

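Genes that feed or surround the respiratory chain were read from 2 more lists. With NaKtide on western diet under the hippocampus label, 1 of 13 citric acid cycle genes rose and 4 fell by edgeR, with a median log2 change of -0.0037. Of all genes, 17.4% rose and 16.3% fell in that comparison. Dld, the shared dehydrogenase subunit of the 2-oxoacid complexes, fell from 87.4 ± 5.12 to 57.4 ± 11.2 CPM (-0.61, SE 0.15, adjusted p = 0.00649), and Sucla2, a subunit of succinyl-CoA synthetase, from 132 ± 5.34 to 97.6 ± 11.4 CPM (-0.44, SE 0.12, adjusted p = 0.00823). Of 14 mitochondrial carriers and import genes 2 rose and 1 fell (median 0.01). Timm44, which ties the import motor to the inner membrane channel, rose from 37.2 ± 2.63 to 55.7 ± 12.9 CPM (0.58, adjusted p = 0.00807), and Tomm40, the pore of the outer membrane, by 0.38 (adjusted p = 0.0419). For the difference between labels on control diet, where 11.7% of all genes were higher and 8.88% lower, 2 of 13 citric acid cycle genes were higher and 1 lower, and 3 of 14 carriers and import genes were higher and 1 lower.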
